A study of Mus musculus with 2 samples.

Results

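The genes described here are 48 genes of the skeletal muscle sarcomere, of its calcium release system and of muscle energy supply, taken by name from the gene tables of 2 mouse mammary gland RNA libraries. All 48 were found among the 43346 genes of the tables. They were chosen with the difference between the libraries already known, so every difference given for them is a description, with no test. The study is an ENCODE poly(A) RNA-seq series on mammary gland of adult C57BL/6J mice aged 8 weeks, an inbred laboratory strain. It holds 1 group of 2 biological replicates, replicate 1 and replicate 2, each labelled as pooled from male and female littermates. No genotype, treatment or reproductive state is given in the sources used here, nor the number of animals in a pool, and the labels name no contrast. The tables summed to 56323475 fragments in replicate 1 and 42400459 in replicate 2, in stranded paired-end reads of 76 nt.

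A sarcomere is the repeating contractile unit of striated muscle, in which myosin thick filaments pull on actin thin filaments between Z-discs. A nerve impulse reaches the calcium channel of the T-tubule membrane, the ryanodine receptor opens in the neighbouring sarcoplasmic reticulum, and the released calcium binds troponin C and frees the thin filament for myosin. A SERCA pump then returns the calcium to the store. Fast and slow fibres build the same machine from different paralogues, and the heart shares most of the slow ones. The contractile cells of the mammary gland itself are its myoepithelium, which uses the smooth muscle set of genes. That set overlaps the genes described here in part. The tropomyosins lie along actin in all cells, and desmin is also a filament of smooth muscle.

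Levels are given in TPM, a level scaled by transcript length and library size, as the authors deposited it. Differences are log2 count ratios of replicate 1 over replicate 2, from expected counts scaled by each library's total, with a 95% Clopper-Pearson interval that covers counting error only. The floor of detection was set at 3 fragments of a gene in 1 library. This is 0.0533 CPM (a count scaled to the library's total) in replicate 1 and 0.0708 CPM in replicate 2. A ratio for a gene at 0 in a library was taken against the floor as a bound. That bound leaves out the counting error of the other library, so the lower interval end can lie below it. With 1 to 3 fragments in a library the ratio is given with its interval and is uncertain, and medians of lists set such a library to 3. A gene was called different where its interval lay wholly beyond 2-fold.

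The 48 genes together made up 36933 TPM, or 3.78% of all gene TPM, in replicate 1 and 227.3 TPM, or 0.0231%, in replicate 2. In fragments they took 2141408 in replicate 1 and 11583 in replicate 2. Replicate 1 had all 48 genes above the floor, 44 at 1 TPM or more and 24 above 100 TPM. Replicate 2 had 39 above the floor, 16 at 1 TPM or more and none above 100 TPM. By the 2-fold rule 44 of the 48 were higher in replicate 1 and none in replicate 2, the 4 others being Myh3, Myh8, Tnnt1 and Tpm3. Among all 19827 genes above the floor in a library, 9.18% were called higher in replicate 1 and 7.62% higher in replicate 2. The members were chosen on that difference, so nothing is read from their count. Their median log2 count ratio was 8.57, with a range of 0.14 to 12.14, beside a median of 0.14 over all genes. Bulk RNA does not separate how many muscle cells a sample held from how much RNA each gave, so fewer cells and less RNA per cell cannot be told apart in replicate 2.

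**Figure D1:**
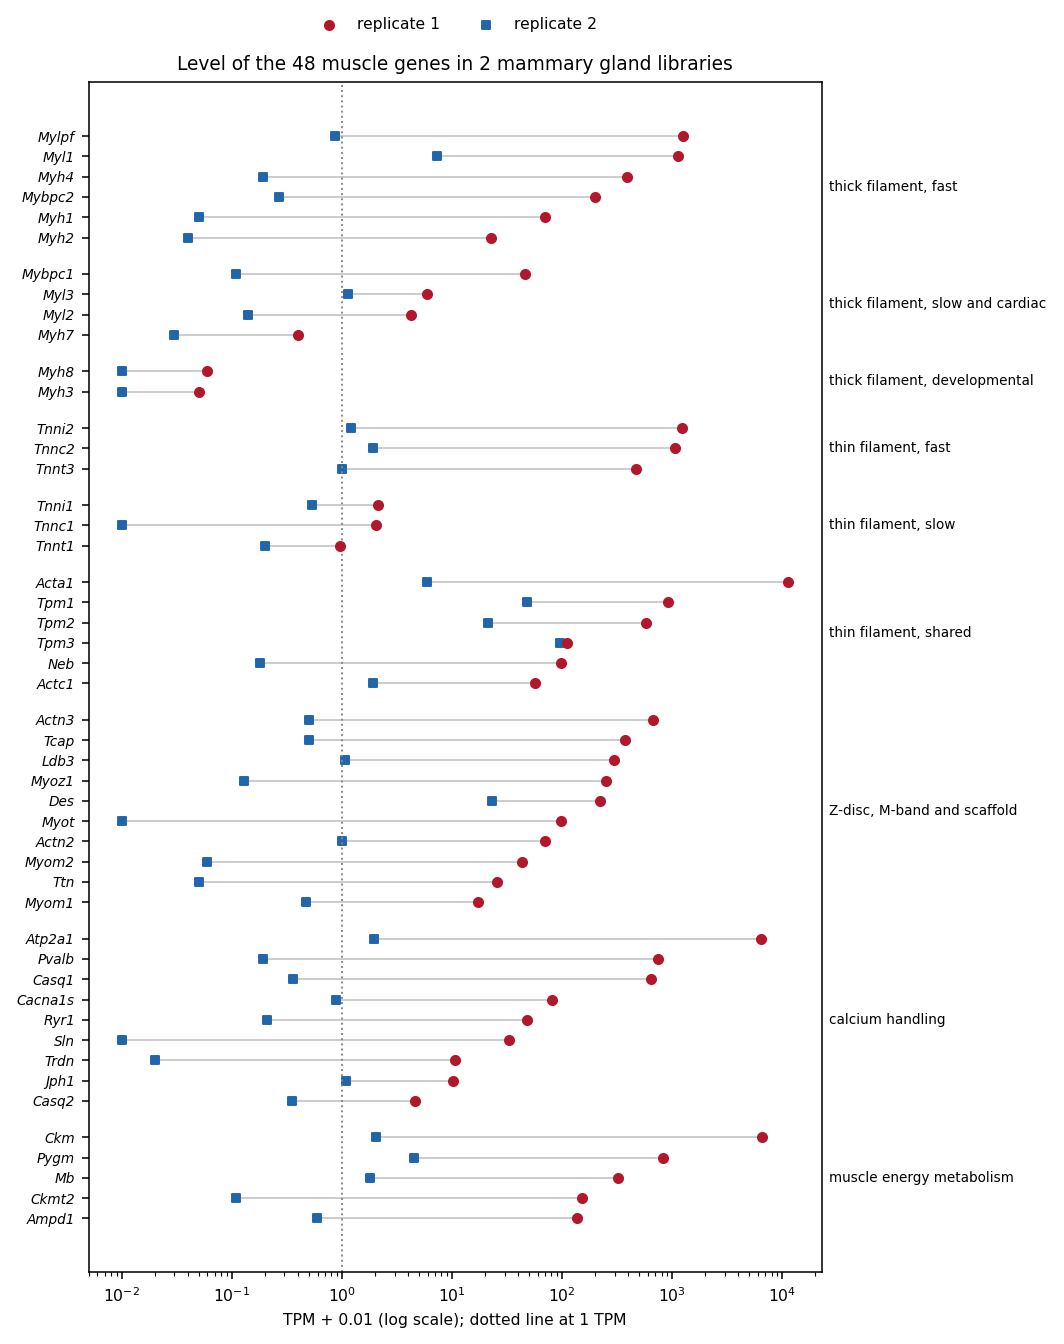
TPM plus 0.01 on a log axis for each of the 48 genes, with replicate 1 as red circles and replicate 2 as blue squares, grouped by role and ordered by the level in replicate 1. The circles spread over a range from Myh3 at 0.04 TPM to Acta1 at 11332 TPM, while no square passes the 95.14 TPM of Tpm3.

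Of the genes in the list, 3 carried most of its RNA in replicate 1. Acta1, the skeletal alpha-actin of the thin filament, stood at 11332 TPM in replicate 1 and 5.93 TPM in replicate 2, with 597507 fragments in replicate 1 and 222 in replicate 2. Ckm, the muscle creatine kinase that regenerates ATP next to the filaments, stood at 6496 TPM in replicate 1 and 2.03 TPM in replicate 2. Atp2a1, the SERCA1 pump of fast fibres, stood at 6394 TPM in replicate 1 and 1.95 TPM in replicate 2. Among protein-coding genes outside the mitochondrial genome these had the ranks 2, 6 and 8 in replicate 1, and they made up 65.6% of the list's TPM. In replicate 2 they had the ranks 9151, 11634 and 11726, and the 3 leading genes of the list were Tpm3, Tpm1 and Des, with 72.9% of its TPM. The log2 count ratio was 10.98 for Acta1 (interval 10.79 to 11.18), 11.73 for Ckm (11.40 to 12.07) and 12.10 for Atp2a1 (11.75 to 12.47). The intervals of Acta1 and Atp2a1 did not overlap, so these genes did not differ between the libraries by 1 common factor.

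The start regions of 6 genes are shown, because they hold the recognised short motifs of muscle promoters in different combinations and belong to genes with unlike results: Acta1, Ckm, Atp2a1, Pvalb and Myh4 with some of the largest differences, and Actc1, the cardiac paralogue of Acta1, with a smaller one. Each line gives the 250 bases before the RefSeq start of the gene on GRCm38.p6 (mm10), 5′ to 3′ on the gene's strand. Positions are counted from that start. In GENCODE M21 most of these genes begin elsewhere, Acta1 at base 123894751, Actc1 at 114053548, Myh4 at 67238029, Ckm at 19404776 and Atp2a1 at 126463108. The windows of Actc1 and Ckm thus lie within the gene as annotated there, and that of Atp2a1 does so in part. Capitals mark TATAAA, an E-box CAGCTG (the core bound by MyoD family factors), a CArG box (bound by serum response factor) or a MEF2 site.

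Acta1 (chr8:123894776-123895025, minus strand): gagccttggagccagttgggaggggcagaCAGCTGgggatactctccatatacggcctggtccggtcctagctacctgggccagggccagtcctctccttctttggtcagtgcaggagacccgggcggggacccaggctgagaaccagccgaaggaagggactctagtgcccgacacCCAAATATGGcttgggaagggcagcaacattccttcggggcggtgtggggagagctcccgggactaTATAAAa
Actc1 (chr2:114052876-114053125, minus strand): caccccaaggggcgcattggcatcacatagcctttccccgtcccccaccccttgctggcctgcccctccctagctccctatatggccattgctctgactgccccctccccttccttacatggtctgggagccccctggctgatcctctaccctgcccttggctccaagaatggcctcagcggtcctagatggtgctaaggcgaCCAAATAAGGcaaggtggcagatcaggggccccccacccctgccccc
Myh4 (chr11:67237562-67237811, plus strand): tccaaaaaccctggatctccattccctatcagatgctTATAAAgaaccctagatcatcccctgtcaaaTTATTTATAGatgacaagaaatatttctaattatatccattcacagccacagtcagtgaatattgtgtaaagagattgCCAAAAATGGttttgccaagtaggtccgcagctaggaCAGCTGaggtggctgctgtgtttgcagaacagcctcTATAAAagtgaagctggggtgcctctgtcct
Ckm (chr7:19410844-19411093, plus strand): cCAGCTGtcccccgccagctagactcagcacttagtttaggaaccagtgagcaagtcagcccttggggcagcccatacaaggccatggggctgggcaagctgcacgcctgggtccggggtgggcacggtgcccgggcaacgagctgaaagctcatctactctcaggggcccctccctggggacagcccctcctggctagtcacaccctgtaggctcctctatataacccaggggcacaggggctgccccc
Atp2a1 (chr7:126463074-126463323, minus strand): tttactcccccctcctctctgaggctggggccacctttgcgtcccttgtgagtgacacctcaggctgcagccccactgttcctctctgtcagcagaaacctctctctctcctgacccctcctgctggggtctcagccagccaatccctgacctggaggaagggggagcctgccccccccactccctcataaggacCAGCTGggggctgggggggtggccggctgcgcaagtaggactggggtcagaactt
Pvalb (chr15:78206401-78206650, minus strand): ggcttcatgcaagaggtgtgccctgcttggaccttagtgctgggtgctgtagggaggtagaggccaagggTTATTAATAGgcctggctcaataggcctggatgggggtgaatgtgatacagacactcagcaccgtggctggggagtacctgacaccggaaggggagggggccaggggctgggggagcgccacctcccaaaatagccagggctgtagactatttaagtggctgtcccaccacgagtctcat

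In these 6 windows the marked motifs did not overlap each other. Acta1 held an E-box from base -221 to -216 before its start, a CArG box from -73 to -64 and TATAAA from -7 to -2. Actc1 held a CArG box from -47 to -38 and none of the other motifs. Myh4 held all 4 kinds, with its MEF2 site from -182 to -173 and its CArG box from -104 to -95. Ckm and Atp2a1 each held an E-box, and Pvalb a MEF2 site. RefSeq windows were available for 36 of the 48 genes, in 44 windows. Searched on both strands, the E-box CAGCTG stood in windows of 17 of these 36 genes, or 19 of 44 windows, beside 13% of all 32851 windows of this length. The CArG box stood in windows of 6 genes (Acta1, Actc1, Ldb3, Myh4, Myl3 and Myom1), or 7 of 44 windows, beside 1.47% of all windows. The MEF2 site stood in windows of 6 genes (Casq2, Myh1, Myh4, Myh8, Pvalb and Ttn), or 6 of 44 windows, beside 2.92%. TATAAA, searched on the gene's strand, stood in windows of 5 genes (Acta1, Myh1, Myh3, Myh4 and Tnnt1), or 5 of 44 windows, beside 7.59%. These matches are letters in a window and were not tested as binding sites. Acta1 and Myh4, with ratios of 10.98 and 11.17, share the CArG box with Actc1, Ldb3, Myl3 and Myom1, whose ratios lie from 2.63 to 7.15.

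The myosin heavy chains are the motors of the thick filament, and the 3 fast genes among them were far ahead of the other 3. Myh4, the motor of the fastest type IIB fibres, stood at 391.4 TPM in replicate 1 and 0.18 TPM in replicate 2 (97832 fragments in replicate 1 and 32 in replicate 2), a log2 count ratio of 11.17 (10.67 to 11.72). Myh1, the type IIX motor, stood at 69.44 TPM in replicate 1 and 0.04 TPM in replicate 2, a ratio of 10.62 (9.65 to 11.84). Myh2, the type IIA motor, stood at 22.52 TPM in replicate 1 and 0.03 TPM in replicate 2, a ratio of 9.65 (8.43 to 11.28). The order in replicate 1 was thus IIB, then IIX, then IIA, and in replicate 2 the 3 genes had 32, 8 and 5 fragments. Myh7, the slow and cardiac beta motor, reached only 0.39 TPM in replicate 1 and 0.02 TPM in replicate 2, with 100 fragments in replicate 1, 3 in replicate 2 and a ratio of 4.65 (3.06 to 6.95). The embryonic gene Myh3 had 10 fragments in replicate 1 and 0 in replicate 2, and the perinatal gene Myh8 had 8 in replicate 1 and 0 in replicate 2. Neither was called, with lower interval bounds of 0.75 and 0.36.

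The fast and developmental genes are neighbours in 1 cluster on chromosome 11 of mm10, in the order Myh3, Myh2, Myh1, Myh4 and Myh8 from base 67078300 to base 67308634, while Myh7 lies on chromosome 14. Their levels did not follow that order: Myh4 at 391.4 TPM in replicate 1 sits between Myh1 at 69.44 TPM and Myh8 at 0.05 TPM. Of all TPM of these 6 motor genes in replicate 1, Myh4 took 80.89%, Myh1 14.35%, Myh2 4.655%, Myh7 0.08061% and the 2 developmental genes 0.0186%. The 3 fast genes together took 99.90% in replicate 1 and 92.59% in replicate 2. The second share rests on 48 fragments, of which 45 were fast, with an interval of 82.80% to 98.69%. Part of the myosin sequence is shared: 16.3% of the 76-base words of Myh1, 16.1% of those of Myh2 and 9.38% of those of Myh4 occur in another gene, so the split among these 3 is less certain than their sum. Of the words of Myh7 15.3% also occur in the cardiac gene Myh6.

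The light chains, which stiffen and regulate the myosin head, also have fast and slow forms. Mylpf, the fast regulatory light chain, stood at 1260 TPM in replicate 1 and 0.86 TPM in replicate 2, a log2 count ratio of 11.46 (10.48 to 12.67). Its slow and cardiac counterpart Myl2 stood at 4.24 TPM in replicate 1 and 0.13 TPM in replicate 2, on 85 fragments in replicate 1 and 1 in replicate 2 (ratio 6.00, interval 3.48 to 11.32). Myl1, the fast essential light chain, stood at 1129 TPM in replicate 1 and 7.26 TPM in replicate 2, a ratio of 7.21 (6.97 to 7.47). Its interval lies below those of Mylpf and of the 3 fast heavy chains. The slow essential light chain Myl3 stood at 5.97 TPM in replicate 1 and 1.13 TPM in replicate 2, a ratio of 2.63 (1.98 to 3.36). Of the 76-base words of Myl1 22.5% recur in the pseudogene Mylf-ps, so its low count in replicate 2 is uncertain. For myosin-binding protein C, a brace along the thick filament, the fast form Mybpc2 stood at 199.8 TPM in replicate 1 and 0.26 TPM in replicate 2, and the slow form Mybpc1 at 46.24 TPM in replicate 1 and 0.10 TPM in replicate 2. Their ratios, 9.68 (9.14 to 10.28) and 9.71 (8.35 to 11.59), had overlapping intervals, as had Mylpf and Myl2, while those of Myl1 and Myl3 were apart.

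Troponin is the calcium switch of the thin filament, with a calcium sensor (C), an inhibitor (I) and a tropomyosin anchor (T). The fast sensor gene Tnnc2 stood at 1052 TPM in replicate 1 and 1.92 TPM in replicate 2, a log2 count ratio of 10.86 (9.93 to 11.99). The fast inhibitor Tnni2 stood at 1225 TPM in replicate 1 and 1.20 TPM in replicate 2, a ratio of 9.88 (9.28 to 10.55). The fast anchor Tnnt3 stood at 473.6 TPM in replicate 1 and 0.98 TPM in replicate 2, a ratio of 10.10 (9.22 to 11.16). All 3 fast genes were therefore called, at ratios whose intervals overlap, and Tnni2 and Tnnt3 are near each other on chromosome 7, at 142441808 to 142444410 and at 142498836 to 142516009. The slow genes were at 2.10 TPM in replicate 1 and 0.52 TPM in replicate 2 for Tnni1, at 2.03 TPM in replicate 1 and 0 TPM in replicate 2 for Tnnc1 and at 0.95 TPM in replicate 1 and 0.19 TPM in replicate 2 for Tnnt1. Tnni1 was called at a ratio of 2.38 (1.50 to 3.39). Tnnc1, also called, had 44 fragments in replicate 1 and 0 in replicate 2. Against the floor Tnnc1 was 11.04-fold higher in replicate 1, with a lower interval end of 3.11 in log2. Tnnt1, with 26 fragments in replicate 1 and 3 in replicate 2, was not called, at a ratio of 2.71 (1.00 to 5.07).

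Over these filaments the 9 fast genes (3 heavy chains, 2 light chains, Mybpc2 and 3 troponins) summed to 5822 TPM in replicate 1 and 12.73 TPM in replicate 2, all 9 called, at a median log2 count ratio of 10.10. The 7 slow genes summed to 61.92 TPM in replicate 1 and 2.09 TPM in replicate 2, 6 of 7 called, at a median of 3.46 with those at the floor set to their bound. For 4 of these slow genes replicate 2 had 3 fragments or fewer, so depth limits how large a difference could be seen. The fast member took at least 99.47% of TPM of each troponin and light chain pair in replicate 1. In replicate 2 the fast share was 100% for troponin C, 86.87% for the regulatory light chain, 86.53% for the essential light chain, 83.76% for troponin T and 69.77% for troponin I. By fragments, the exact binomial interval in replicate 2 was 66.37% to 100% for troponin C on 9 fragments, 46.49% to 80.25% for troponin I on 34 and 46.19% to 94.96% for troponin T on 13. It was 51.75% to 99.72% for the regulatory light chain on 9 fragments and 79.79% to 91.30% for the essential light chain on 153.

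**Figure D2:**
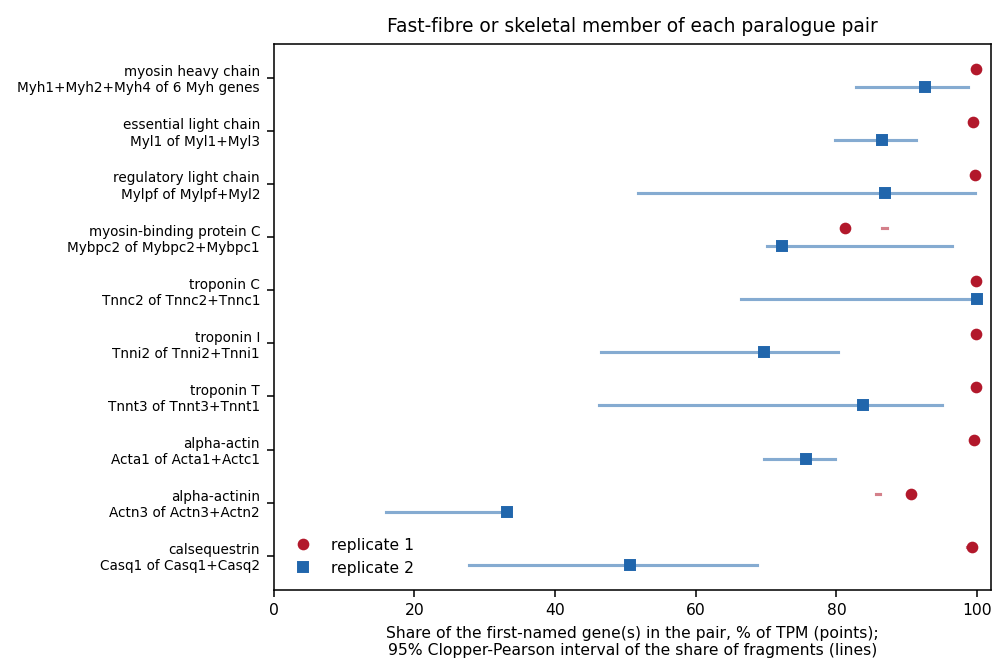
Share of the fast or skeletal gene in each paralogue pair as a percent of the pair's TPM (points; red circles replicate 1, blue squares replicate 2), with the 95% Clopper-Pearson interval of the same share in fragments as lines. In replicate 1 the shares lie from 81.20% (Mybpc2) to 99.90% (myosin heavy chain), and in replicate 2 from 33.11% (Actn3) to 100% (troponin C), with wide intervals because few fragments were counted.

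The remaining thin filament genes are shared between fibre types, and several are used outside muscle. Actc1, cardiac alpha-actin, stood at 56.16 TPM in replicate 1 and 1.91 TPM in replicate 2, a log2 count ratio of 4.96 (4.63 to 5.31), well under that of Acta1. Acta1 made up 99.51% of the TPM of the 2 actins in replicate 1 and 75.64% in replicate 2. Neb, nebulin, the ruler along the thin filament, stood at 97.01 TPM in replicate 1 and 0.17 TPM in replicate 2, a ratio of 9.07 (8.49 to 9.71). The tropomyosins lie along actin in all cells. Tpm2 stood at 573.5 TPM in replicate 1 and 21.13 TPM in replicate 2, and Tpm1 at 910.7 TPM in replicate 1 and 47.71 TPM in replicate 2. Their ratios were 5.11 (5.02 to 5.20) and 3.70 (3.64 to 3.76). Tpm3 stood at 110.3 TPM in replicate 1 and 95.14 TPM in replicate 2, and its ratio of 0.14 (0.08 to 0.19) equalled the median over all genes. The sign of the Tpm3 ratio turned with the scaling, to -0.63 by spike-in totals, the same as the median of all genes by that scaling, and -0.12 with the GC trend removed. Of the Tpm3 words 56.2% also occur in Tpm3-rs7, a near copy, so its count is uncertain.

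The transcripts of the tropomyosin genes separated what the gene totals had joined. Tpm1-205, of 1208 nt, which encodes a 284-residue tropomyosin, stood at 850.7 TPM in replicate 1 and 1.87 TPM in replicate 2, which was 93.41% of the gene in replicate 1 and 3.93% in replicate 2. Its log2 count ratio was 8.92 (8.54 to 9.32). The other 20 Tpm1 transcripts together stood at 59.98 TPM in replicate 1 and 45.84 TPM in replicate 2, a ratio of 0.32 (0.25 to 0.40). That sum joins transcripts that differed in opposite directions. Tpm1-203 had 686 fragments in replicate 1 and 0 in replicate 2 (15.16 TPM in replicate 1 and 0 in replicate 2). Tpm1-212 had instead 0 fragments in replicate 1 and 382 in replicate 2 (0 TPM in replicate 1 and 8.29 TPM in replicate 2), and Tpm1-214 had 0 in replicate 1 and 98 in replicate 2. Others were closer: Tpm1-215, also of 284 residues, stood at 9.00 TPM in replicate 1 and 8.98 TPM in replicate 2. The 248-residue form Tpm1-211 stood at 8.66 TPM in replicate 1 and 11.03 TPM in replicate 2.

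Tpm1-205 and Tpm1-215 have in the same place a different exon of 126 bases, and both exons are shown as 1 of the differences between these forms. In the annotation Tpm1-205 also has exons of 276 and 79 bases that overlap no exon of Tpm1-209, Tpm1-211, Tpm1-212 or Tpm1-215. The exon of Tpm1-215 lies upstream on the gene's minus strand and that of Tpm1-205 downstream. The sequences are from GENCODE M21 (mm10), 5′ to 3′, with capitals where the aligned bases differ.

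Tpm1 downstream exon (chr9:67047786-67047911, minus strand): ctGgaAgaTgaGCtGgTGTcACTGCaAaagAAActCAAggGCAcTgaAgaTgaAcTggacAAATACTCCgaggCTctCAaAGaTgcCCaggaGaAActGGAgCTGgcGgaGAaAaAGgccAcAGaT
Tpm1 upstream exon (chr9:67048124-67048249, minus strand): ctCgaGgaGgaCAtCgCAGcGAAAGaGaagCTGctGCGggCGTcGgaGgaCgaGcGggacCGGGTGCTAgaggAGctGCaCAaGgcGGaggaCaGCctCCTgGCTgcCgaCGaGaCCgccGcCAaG

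The exons differ at 66 of 126 aligned bases, an identity of 47.6%. The 11 transcripts with the downstream exon summed to 878.5 TPM in replicate 1 and 7.12 TPM in replicate 2, a log2 count ratio of 6.91 (6.73 to 7.10). Without Tpm1-205, the 10 others with the downstream exon summed to 27.78 TPM in replicate 1 and 5.25 TPM in replicate 2, on 1394 fragments in replicate 1 and 181 in replicate 2. Among them Tpm1-217, a retained-intron transcript not annotated as coding, had 5.08 TPM in replicate 1 and 3.61 TPM in replicate 2. It held 200 of these fragments in replicate 1 and 101 in replicate 2. The 3 with the upstream exon summed to 9.00 TPM in replicate 1 and 11.15 TPM in replicate 2, a ratio of -0.21 (-0.38 to -0.04). The 1 transcript annotated with both exons had 0 fragments in each library.

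In Tpm2 both Tpm2-202 and the rest of the gene were higher in replicate 1. Tpm2-202 stood at 88.93 TPM in replicate 1 and 0.05 TPM in replicate 2 (7240 fragments in replicate 1 and 3 in replicate 2, a log2 count ratio of 10.83, interval 9.28 to 13.11), and differs from Tpm2-201 and Tpm2-203 by an exon of 76 bases at 43518644 to 43518719 on chromosome 4. The other 5 Tpm2 transcripts stood at 484.5 TPM in replicate 1 and 21.08 TPM in replicate 2, a ratio of 4.88 (4.79 to 4.97). Tpm3-204, the 285-residue form, stood at 6.57 TPM in replicate 1 and 1.27 TPM in replicate 2, a ratio of 2.45 (2.11 to 2.81). The other 16 Tpm3 transcripts stood at 103.8 TPM in replicate 1 and 93.87 TPM in replicate 2, a ratio of 0.03 (-0.02 to 0.09). These transcripts were picked for their large ratios.

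**Figure D3:**
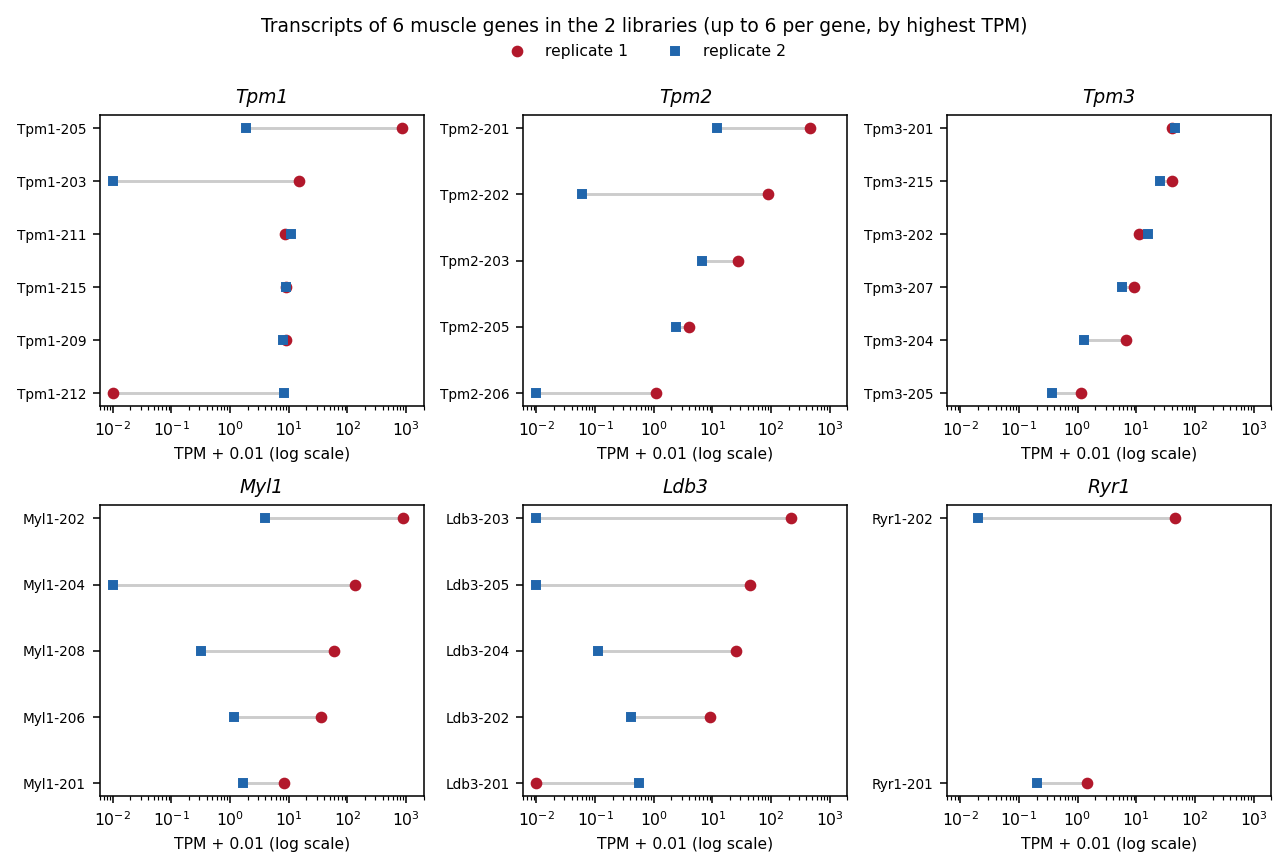
TPM plus 0.01 on a log axis for up to 6 transcripts each of Tpm1, Tpm2, Tpm3, Myl1, Ldb3 and Ryr1, with replicate 1 as red circles and replicate 2 as blue squares. For Tpm1 the circle of Tpm1-205 stands at 850.7 TPM, far from its square at 1.87 TPM, while the symbols of Tpm1-209, Tpm1-211 and Tpm1-215 lie on or beside each other and those of Tpm1-203 and Tpm1-212 lie far apart in opposite directions.

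The Z-disc anchors the thin filaments, the M-band joins the thick filaments at their middle, and titin spans from the one to the other. All 10 genes of these structures were called higher in replicate 1, at a median log2 count ratio of 9.40. Actn3, the alpha-actinin of fast fibres that crosslinks actin at the Z-disc, stood at 665 TPM in replicate 1 and 0.49 TPM in replicate 2, a ratio of 10.53 (9.98 to 11.14). Actn2, the alpha-actinin of all fibres and of the heart, stood at 69.59 TPM in replicate 1 and 0.99 TPM in replicate 2, a ratio of 6.22 (5.91 to 6.54). Actn3 took 90.53% of the pair's TPM in replicate 1 and 33.11% in replicate 2, so the order of the 2 paralogues differed between the libraries. Among other Z-disc genes, Myoz1, a calcineurin-binding protein of fast fibres, stood at 251.3 TPM in replicate 1 and 0.12 TPM in replicate 2. Tcap, the titin cap telethonin, stood at 375.5 TPM in replicate 1 and 0.49 TPM in replicate 2. Myot, myotilin, had 8188 fragments in replicate 1 and 0 in replicate 2. Against the floor Myot was 2055-fold higher in replicate 1, with a lower interval end of 10.71 in log2.

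Titin and the M-band genes followed. Ttn, the giant spring of the sarcomere, stood at only 25.72 TPM in replicate 1 and 0.04 TPM in replicate 2 but on 67129 fragments in replicate 1 and 89 in replicate 2, since its length in the table of replicate 1 is 60737 nt. Its log2 count ratio was 9.15 (8.85 to 9.47). Myom2, the M-band crosslinker of fast fibres, stood at 43.43 TPM in replicate 1 and 0.05 TPM in replicate 2, a ratio of 9.65 (8.67 to 10.86). Myom1, the general M-band crosslinker, stood at 17.25 TPM in replicate 1 and 0.46 TPM in replicate 2, a ratio of 5.26 (4.93 to 5.61). The order of the M-band pair therefore also differed between the libraries. Ldb3, a PDZ-LIM protein of the Z-disc, stood at 296.9 TPM in replicate 1 and 1.06 TPM in replicate 2, a ratio of 7.15 (6.92 to 7.39). Des, desmin, the intermediate filament of all muscle cells including smooth muscle, had the smallest ratio here, at 222.9 TPM in replicate 1 and 22.86 TPM in replicate 2 (3.40, 3.33 to 3.47).

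**Figure D4:**
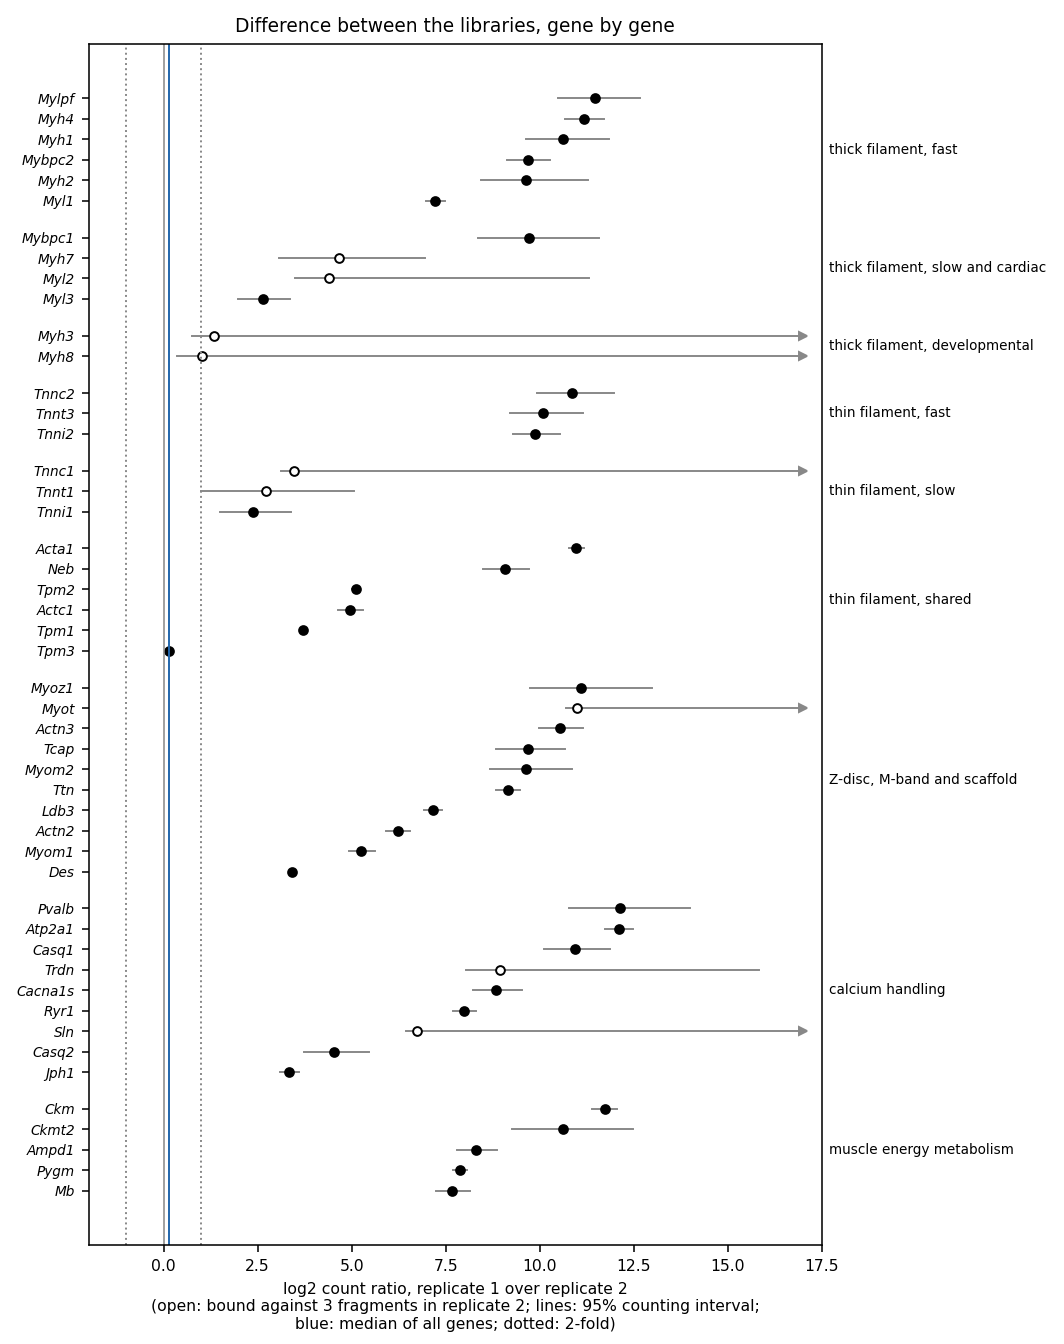
Log2 count ratio of replicate 1 over replicate 2 for each gene with its 95% counting interval, grouped by role; open circles are bounds against 3 fragments in replicate 2, arrows mark intervals with no upper end, the blue line is the median of all genes at 0.14 and dotted lines are at 2-fold. The fast filament genes lie from 7.21 to 11.46, the slow ones from 2.38 to 9.71, and Tpm3 lies on the median of all genes.

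The calcium genes ran along the path from membrane to store. Cacna1s, the voltage sensor of the T-tubule, stood at 80.11 TPM in replicate 1 and 0.87 TPM in replicate 2, a log2 count ratio of 8.84 (8.24 to 9.52). Ryr1, the release channel it opens, stood at 48.1 TPM in replicate 1 and 0.20 TPM in replicate 2, a ratio of 7.99 (7.70 to 8.30). Jph1, junctophilin, which holds the membranes of the triad together, stood at 10.26 TPM in replicate 1 and 1.07 TPM in replicate 2, a ratio of 3.34 (3.10 to 3.59). It was the smallest ratio of the calcium genes. Trdn, triadin, which tethers calsequestrin to the channel, stood at 10.52 TPM in replicate 1 and 0.01 TPM in replicate 2, on 1953 fragments in replicate 1 and 1 in replicate 2 (ratio 10.52, interval 8.04 to 15.83).

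Within the store, Casq1, the calcium buffer of fast fibres, stood at 640.2 TPM in replicate 1 and 0.35 TPM in replicate 2, a log2 count ratio of 10.93 (10.12 to 11.88). Casq2, the cardiac and slow form, stood at 4.59 TPM in replicate 1 and 0.34 TPM in replicate 2, a ratio of 4.53 (3.74 to 5.45). Casq1 was 99.29% of the pair's TPM in replicate 1 and 50.72% in replicate 2, where the 2 genes had 12 and 13 fragments. Among the genes that remove calcium, Atp2a1 reached 12.10, as given above. Pvalb, parvalbumin, the soluble calcium buffer of fast fibres, reached 12.14 (10.78 to 14.01), at 747.7 TPM in replicate 1 and 0.18 TPM in replicate 2, where it had only 4 fragments. These were the highest ratios of the 48 by total fragments, but with the GC trend removed Ckm was higher, at 12.61, beside 12.13 for Atp2a1 and 11.85 for Pvalb. Sln, sarcolipin, a small inhibitor of the pump, had 430 fragments in replicate 1 and 0 in replicate 2. Against the floor Sln was 107.9-fold higher in replicate 1, with a lower interval end of 6.45 in log2. All 9 calcium genes were called, at a median of 8.84. Atp2a2, the SERCA2 pump of slow fibres, heart and non-muscle cells, is not among the 48 and was looked up after the values were seen: it stood at 40.77 TPM in replicate 1 and 47.21 TPM in replicate 2, a ratio of -0.14 (-0.18 to -0.09).

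The 5 energy genes were all called, at a median log2 count ratio of 8.30. Ckmt2, the mitochondrial creatine kinase of striated muscle, stood at 151.8 TPM in replicate 1 and 0.10 TPM in replicate 2, a ratio of 10.62 (9.26 to 12.49). Pygm, muscle glycogen phosphorylase, stood at 831 TPM in replicate 1 and 4.51 TPM in replicate 2, a ratio of 7.88 (7.70 to 8.07). Ampd1, the muscle AMP deaminase, stood at 137.1 TPM in replicate 1 and 0.58 TPM in replicate 2, a ratio of 8.30 (7.79 to 8.87). Mb, myoglobin, the oxygen store, stood at 320.0 TPM in replicate 1 and 1.78 TPM in replicate 2, a ratio of 7.67 (7.23 to 8.14). The intervals of Pygm and Mb lie wholly below that of Ckm, which reached 11.73.

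Of the 48 genes, 40 had more than 1 transcript in the tables, and 26 of these had at least 10 fragments in both libraries. The dominant transcript differed between the libraries in 13 of the 26. That count includes a near tie, Actn3-201 at 53.05% of Actn3 in replicate 1 and 49.70% in replicate 2. It also includes genes with few fragments in replicate 2, such as Tnnt3 with 10 and Casq2 with 13. At such counts the assignment of fragments among similar transcripts is uncertain. Ldb3-203, the shortest of 5 forms at 1623 nt, stood at 218.8 TPM in replicate 1 and 0 in replicate 2, and Ldb3-205 at 43.78 TPM in replicate 1 and 0 in replicate 2. The longest, Ldb3-201 at 5040 nt, was instead at 0 in replicate 1 and at 0.56 TPM in replicate 2, on 83 fragments. Ryr1-202 was 97.04% of Ryr1 in replicate 1 and 3.05% in replicate 2. Ryr1-201, of nearly the same length, was the other 2.96% in replicate 1 and 96.95% in replicate 2. In replicate 2 this split rests on 3 fragments assigned to Ryr1-202 and 90 to Ryr1-201. In the annotation the 2 forms differ only by an exon of 15 bases in Ryr1-202 and a few bases elsewhere. Few fragments can tell them apart, so the split in replicate 2 is uncertain. Myom1-202 was 6.02% of Myom1 in replicate 1 and 72.98% in replicate 2. In Myl1, the 150-residue form Myl1-202 led in both libraries, at 893.4 TPM in replicate 1 and 3.96 TPM in replicate 2, a log2 count ratio of 7.90 (7.57 to 8.25). The 188-residue form Myl1-201 stood at 8.23 TPM in replicate 1 and 1.65 TPM in replicate 2, a ratio of 2.40 (1.94 to 2.89).

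Part of what was counted for these genes was assigned to transcripts that the annotation does not call coding, and that part differed between the libraries in both directions. Such transcripts were 99.19% of Cacna1s, 84.33% of Tnnt3, 82.55% of Tnnc2 and 66.13% of Tnni2 by TPM in replicate 2, on 9 to 22 fragments per gene. In replicate 1 they were 38.66%, 16.71%, 0.11% and 0.55% of the same 4 genes. The opposite held for Neb, at 67.20% in replicate 1 and 18.52% in replicate 2, Mybpc1, at 29.13% in replicate 1 and 0% in replicate 2, Casq2, at 17.08% in replicate 1 and 1.93% in replicate 2, Myl1, at 17.01% in replicate 1 and 6.83% in replicate 2, and Tpm3, at 45.43% in replicate 1 and 33.75% in replicate 2. In replicate 2 Mybpc1 had only 4 fragments, Casq2 13 and Neb 24, so their shares there are uncertain. The full-length coding form Cacna1s-204 had 11060 fragments in replicate 1 and 0 in replicate 2. Short transcripts also weigh on the levels in replicate 1, because TPM divides by length. Atp2a1-202, of 681 nt, was 67.72% of the TPM of Atp2a1 in replicate 1 on 87871 of its 378538 fragments, and Atp2a1-201, the 994-residue pump, stood at 2063 TPM in replicate 1 and 0.43 TPM in replicate 2. Retained-intron or non-coding transcripts were 59.69% of Casq1 in replicate 1 and 61.85% in replicate 2, and 46.95% of Actn3 in replicate 1 and 50.30% in replicate 2, so gene TPM overstates the coding level of these genes and of Neb.

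Other genes of muscle outside the 48 were grouped in 6 further lists of 108 genes, of which 107 were found and tested. Of these, 80 were called higher in replicate 1 and 1 higher in replicate 2, at a median log2 count ratio of 3.50. The lists were likewise drawn up with results of these data known. Other sarcomere genes were called in 30 of 32 cases, at a median of 6.32. In that list the small heat shock protein gene Cryab stood at 214.6 TPM in replicate 1 and 81.05 TPM in replicate 2 (ratio 1.49) and the thin filament cap Tmod4 at 71.17 TPM in replicate 1 and 0.25 TPM in replicate 2 (8.10). Pdlim3, a Z-disc PDZ-LIM gene, stood at 71.11 TPM in replicate 1 and 12.78 TPM in replicate 2 (2.56).

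Other triad and calcium genes were called higher in replicate 1 in 16 of 23 cases, at a median of 3.18. The reticulon gene Rtn2 stood at 565.6 TPM in replicate 1 and 30.28 TPM in replicate 2 (log2 count ratio 4.24), and Tmem38a, a potassium channel of the sarcoplasmic reticulum, at 262.2 TPM in replicate 1 and 5.30 TPM in replicate 2 (5.71). The 1 gene called higher in replicate 2 was Atp2a3, the SERCA3 pump of non-muscle cells, at 55.64 TPM in replicate 1 and 108.9 TPM in replicate 2 (-1.05, interval -1.09 to -1.01). Orai1, the store-operated calcium channel of many cell types, stood at 76.96 TPM in replicate 1 and 108.9 TPM in replicate 2 (-0.36) and was not called.

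The other muscle metabolism genes were called in 14 of 18 cases, at a median of 3.43. They include genes used in every tissue. Aldoa, the aldolase of glycolysis, stood at 6523 TPM in replicate 1 and 2650 TPM in replicate 2 (log2 count ratio 1.18), and Ldha, lactate dehydrogenase, at 1818 TPM in replicate 1 and 714 TPM in replicate 2 (1.43). Gpd1, glycerol phosphate dehydrogenase, stood at 768.4 TPM in replicate 1 and 801 TPM in replicate 2 (0.02), and Cox8b, a subunit of cytochrome oxidase in heart, muscle and brown fat, at 694.8 TPM in replicate 1 and 361.5 TPM in replicate 2 (1.06, interval 0.97 to 1.14). Neither of the last pair was called.

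Genes of the fibre membrane and of the nerve contact had lower median ratios. In the dystrophin complex 6 of 11 were called, at a median of 1.65. Sgca, alpha-sarcoglycan, stood at 311.6 TPM in replicate 1 and 1.16 TPM in replicate 2 (log2 count ratio 7.24). Dystroglycan (Dag1) and dysferlin (Dysf), which many tissues express, had ratios of -0.18 and 0.41 and were not called. Of the neuromuscular junction genes 7 of 10 were called, at a median of 2.13. The acetylcholine receptor subunit gene Chrnb1 stood at 28.67 TPM in replicate 1 and 12.82 TPM in replicate 2 (1.33), and its clustering protein Rapsn at 7.39 TPM in replicate 1 and 3.30 TPM in replicate 2 (1.52). The collagen tail gene Colq (0.00) and the agrin receptor Lrp4 (0.82) were not called.

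The regulators of the muscle programme were present at low levels in replicate 1. Of 13 such genes 7 were called, at a median log2 count ratio of 1.81. All 6 genes of the list of satellite cell and myoblast markers, 5 of which are also among these 13, were called, and together they stood at 15.36 TPM in replicate 1 and 0.03 TPM in replicate 2. The highest of them was Myf6, which is expressed mainly in mature fibres and so is not specific to those cells. It stood at 6.75 TPM in replicate 1 and 0 in replicate 2 (302 fragments in replicate 1 and 0 in replicate 2). Myod1, the master regulator of myoblasts, stood at 5.63 TPM in replicate 1 and 0 in replicate 2 (399 fragments in replicate 1 and 0 in replicate 2). Myog, myogenin, had 105 fragments in replicate 1 and 0 in replicate 2, and Myf5 had 36 in replicate 1 and 0 in replicate 2. Of these 6 markers 5 had no fragment in replicate 2, where a count of 0 allows up to 0.0708 CPM. The broadly expressed partners of these factors were at higher levels, and Mef2c was the 1 of the 4 highest that was called, at 22.68 TPM in replicate 1 and 12.93 TPM in replicate 2 (1.17, interval 1.09 to 1.26). Mef2d (-0.52), Srf (-0.85) and Mef2a (0.84) were not.

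Of 9 cardiomyocyte genes 7 passed the floor in a library and 0 were called in either direction, by the interval rule with no p-value computed. With 9.18% of all genes called higher in replicate 1 and 7.62% higher in replicate 2, a count of 0 in a list of this size is near the background. The list summed to 9.75 TPM in replicate 1 and 11.76 TPM in replicate 2, at a median log2 count ratio of 0.16. Tnni3, cardiac troponin I, stood at 4.54 TPM in replicate 1 and 7.46 TPM in replicate 2 (-0.89), and Myh6, the cardiac alpha motor, at 0.30 TPM in replicate 1 and 0.16 TPM in replicate 2 (0.92). Myl4 stood at 3.57 TPM in replicate 1 and 3.37 TPM in replicate 2, Tnnt2 at 0.93 TPM in replicate 1 and 0.37 TPM in replicate 2, and Nppb, a natriuretic peptide gene, had 0 fragments in both. Actc1, Myl2, Myl3, Tnnc1 and Casq2, which heart and slow skeletal fibres or developing muscle share, are among the 48 and were called higher in replicate 1. Smooth muscle and myoepithelial markers summed to 743.6 TPM in replicate 1 and 665.7 TPM in replicate 2, with 1 of 10 called in each direction and a median of 0.07. Acta2, smooth muscle actin, stood at 476.5 TPM in replicate 1 and 353.1 TPM in replicate 2 (0.51) and Tagln at 144.1 TPM in replicate 1 and 174.8 TPM in replicate 2 (-0.20). Cnn1, calponin, had a ratio of -0.74 and Smtn, smoothelin, of -1.10 (-1.19 to -1.01), which was called higher in replicate 2.

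Other marker lists also differed between these libraries. Brown adipocyte markers summed to 2031 TPM in replicate 1 and 669.9 TPM in replicate 2, with 6 of 10 called higher in replicate 1 at a median log2 count ratio of 1.79. Ucp1, the heat-producing uncoupler, stood at 709.9 TPM in replicate 1 and 100.5 TPM in replicate 2 (2.90), Cidea at 188.8 TPM in replicate 1 and 59.52 TPM in replicate 2 (1.75), and Cpt1b, the muscle and brown fat carnitine transferase, at 222.6 TPM in replicate 1 and 37.74 TPM in replicate 2 (2.94). The potassium channel gene Kcnk3 lay on the other side, at 42.88 TPM in replicate 1 and 76.88 TPM in replicate 2 (-0.76), and Otop1, a proton channel gene, stood at 16.05 TPM in replicate 1 and 15.43 TPM in replicate 2 (0.14). Neither was called. Cox7a1 and Cox8b stand in both this list and that of muscle metabolism. Keratinocyte markers summed to 234.3 TPM in replicate 1 and 101.7 TPM in replicate 2, with 5 of 9 called and a median of 3.13. Krtdap, a gene of the upper epidermis, stood at 52.82 TPM in replicate 1 and 1.13 TPM in replicate 2 (5.89), Krt14 at 58.46 TPM in replicate 1 and 47.69 TPM in replicate 2 (0.30), Krt5 at 57.26 TPM in replicate 1 and 35.75 TPM in replicate 2 (0.76) and Sbsn at 14.21 TPM in replicate 1 and 11.66 TPM in replicate 2 (0.90). Flg, filaggrin, had 0 fragments in both libraries.

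Tendon markers summed to 24.00 TPM in replicate 1 and 21.91 TPM in replicate 2, with 2 of 6 called higher in replicate 1 and 1 higher in replicate 2. Thbs4 stood at 12.48 TPM in replicate 1 and 2.67 TPM in replicate 2 (log2 count ratio 2.30), Fmod at 7.91 TPM in replicate 1 and 10.66 TPM in replicate 2 (-0.34), Comp at 0.79 TPM in replicate 1 and 0.94 TPM in replicate 2 (-0.18) and the tendon factor Scx at 2.33 TPM in replicate 1 and 7.48 TPM in replicate 2 (-1.60, called). White adipocyte markers summed to 16282 TPM in replicate 1 and 31766 TPM in replicate 2, with 2 of 5, Cfd and Plin1, called higher in replicate 2. Cfd, adipsin, was at the edge of the rule, at -1.01. Plin1, perilipin, stood at 502.4 TPM in replicate 1 and 1290 TPM in replicate 2 (-1.27), while Adipoq (0.80) and Retn (0.52) were not called. The tissue label was met by its epithelial markers, which summed to 786.2 TPM in replicate 1 and 1305 TPM in replicate 2. Of these, 0 of 6 were called, at a median of -0.67. Over all genes 9.18% were called higher in replicate 1 and 7.62% higher in replicate 2. Counts of 0 or 1 in lists of this size are near that background. The keratin genes Krt19, Krt8 and Krt18 had ratios of -0.74, -0.79 and -0.61, the adhesion gene Epcam -0.98 and the oestrogen receptor gene Esr1 -0.21. Elf5, a transcription factor of the secretory epithelium, lay on the other side at 0.78, with 40.29 TPM in replicate 1 and 21.57 TPM in replicate 2. The part of these differences in the levels of the 48 genes was not tested.

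**Figure D5:**
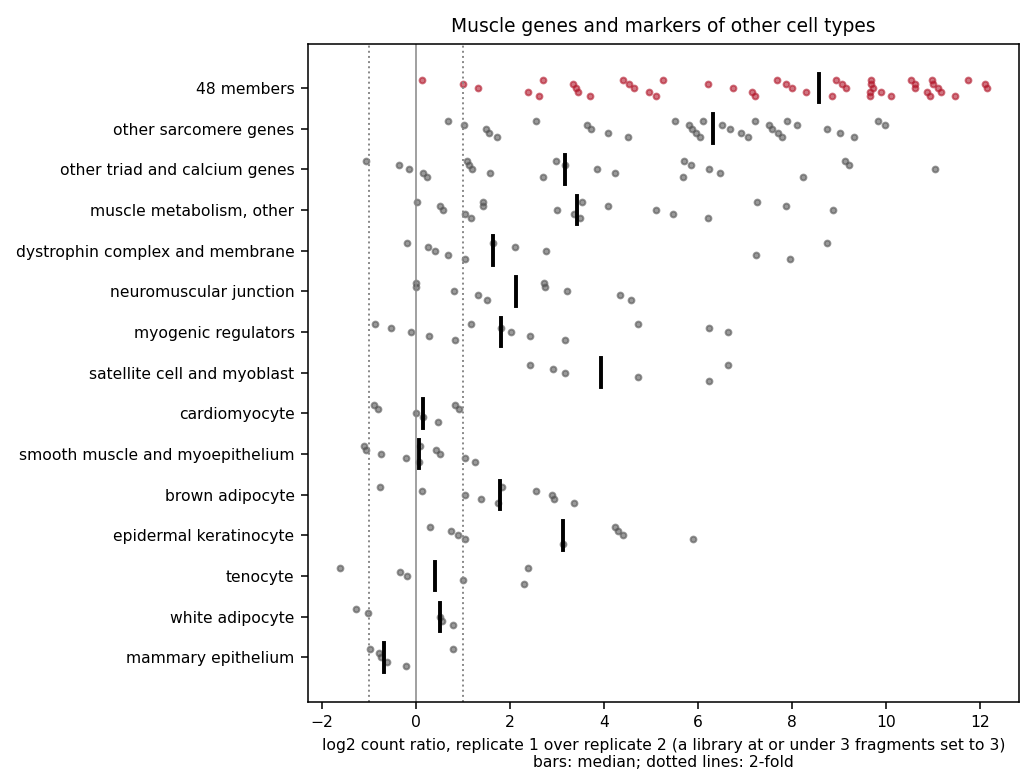
Log2 count ratio of replicate 1 over replicate 2 for each gene (dots) of the 48 and of 14 other lists, with the median of each list as a bar and dotted lines at 2-fold; a library at 3 fragments or fewer was set to 3. The medians are 8.57 for the 48 genes, 6.32 for other sarcomere genes, 0.16 for cardiomyocyte markers and -0.67 for mammary epithelium.

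Genes outside every list with the most similar pattern were taken as those with the largest log2 count ratio among the 10355 genes whose mean level was 5 TPM or more. The 10 largest ran from 8.69 to 10.41. Klhl31 (chromosome 9, 77636500 to 77660127), a kelch protein gene, had 5438 fragments in replicate 1 and 0 in replicate 2, and Eef1a2, the translation elongation factor of muscle and neurons, stood at 177.2 TPM in replicate 1 and 0.14 TPM in replicate 2 (10.40). They were followed by the kinase gene Mylk4, the ribosomal protein gene Rpl3l, Hhatl, Asb5, Ppp1r27, Fbxo40, Mstn and Itgb1bp2. Rpl3l stood at 62.07 TPM in replicate 1 and 0.09 TPM in replicate 2, and Mstn, myostatin, the inhibitor of muscle growth, at 16.56 TPM in replicate 1 and 0 TPM in replicate 2. Of the 10355 genes, 119 had a ratio above 5, of which 34 were among the 48, 32 were in the other muscle lists and 52 were in no list. Above 8 stood 54 genes, with 25, 11 and 18 of them in these classes.

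The libraries also differed along GC content. Over 13124 expressed coding genes the median log2 count ratio ran from 0.96 in the tenth of genes with the lowest GC to -0.91 in the tenth with the highest. The 48 genes had a median GC of 53.0% (36.8% to 61.3%), beside 51.9% over those genes. Trdn was the lowest at 36.8%, with a ratio of 10.52 (8.04 to 15.83), and Tcap the highest at 61.3%, with a ratio of 9.68 (8.84 to 10.68). With the trend removed, the median of the 48 was 8.29 and 45 were called.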

How the data were processed

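Poly(A) RNA of 2 mammary gland libraries was analysed. Per the text notes beside the tables, the authors used mm10 and GENCODE M4, and no source used here names an aligner or a quantifier. Per the file headers, the deposited tables hold expected counts, TPM, FPKM, posterior mean TPM and, for transcripts, isoform percent. The expected counts deposited by the authors were rounded to whole fragments here. The TPM and FPKM values and the percent of each isoform were used as deposited, TPM to 2 decimals, which limits shares in replicate 2. A total of 26248 numbered entries, all at 0, were left out, and 97 spike-in entries were kept out of totals. GENCODE M21 on mm10 named 42462 of 43346 genes and gave coordinates. Files on mm9 were not used.

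Ratios were scaled by total fragments, with intervals from the binomial share of replicate 1. That calculation was checked on simulated data. Intervals and floors cover counting error only. With 1 group there was no test and no p-value, and both libraries may share animals of the same litters. The members and lists were chosen with earlier results of these data known. All 48 members are given, with the 4 highest genes by mean TPM of each other list (some are not reported here), genes at 0 in both libraries and the 10 most similar genes outside the lists. Other genes named were chosen after their values were seen. One gene of the triad list, Strit1, was not matched. Shared sequence is the share of 76-base words of a gene's main transcript found in other genes. Alternatives used scaling factors from edgeR (TMM 1.03 and 0.975) and DESeq2 (size factors 1.21 and 0.829), spike-in totals, other units, pseudocounts and limits. Tools were R 4.3.3, edgeR 4.0.16, DESeq2 1.42.0, Python 3.11.15, matplotlib 3.10.9, scipy 1.17.1, pandas 2.3.3 and numpy 2.4.6.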

Additional observations from a re-analysis of the deposited data

How the results depend on the processing

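The number of the 48 genes called higher in replicate 1 stayed between 42 and 45, beside 44, under 8 alternatives: 3 other scalings, the genes left out of the totals, the GC trend removed in 20 bins, a 4-fold limit, a 99% interval and a minimum of 10 fragments. The median log2 count ratio of 8.57 came to 8.44 by DESeq2 size factors, 7.81 by spike-in totals, 8.29 with the GC trend removed and 9.00 over the 44 genes with a mean of at least 1 TPM, and on the TPM scale to 5.43 with a pseudocount of 1 and 7.51 with 0.1. A gene can pass the limits on mean TPM and on 10 fragments through replicate 1 alone. The values under those 2 limits are therefore no independent check. Spike-in totals moved the median of all genes to -0.63. Of 240 single ratios recomputed under other scalings, 237 kept their call. Tnni1 lost its call by spike-in totals (1.62), and Tnnt1 gained one with the genes left out of the totals (2.76) and with the GC trend removed (3.18). By posterior mean TPM the fast share, as a mean of both libraries, was 78.61% for the myosin heavy chains, 95.62% for troponin C and 66.87% for troponin T, beside 96.25%, 99.90% and 91.78%. The shift lay in replicate 2. The heavy chain share was 99.86% in replicate 1 and 57.35% in replicate 2, and that of troponin C 99.79% in replicate 1 and 91.44% in replicate 2. For troponin T it was 99.21% in replicate 1 and 34.52% in replicate 2, so by this measure alone the slow gene led there. In replicate 2 Tnnt3 had 10 fragments and Tnnt1 had 3, so that share is uncertain. With 1 library left out in turn, the share of all TPM ran from 0.0231% to 3.78%, and the fast shares from 92.59% to 99.90% (heavy chains), 99.81% to 100% (troponin C), 69.77% to 99.83% (troponin I) and 83.76% to 99.80% (troponin T). With at least 100 fragments in both libraries, the dominant transcript differed in 3 of 8 genes in place of 13 of 26. That limit left out the genes with fewer fragments. The causes of these shifts were not tested. The GC correction, the totals without the members, the scalings for other lists and the limit of 100 fragments were added after the data were seen. Of the other muscle lists between 66 (spike-in totals) and 81 genes were called higher in replicate 1, beside 80, and by spike-in totals 4 higher in replicate 2, beside 1. Depth limits the shares and ratios in replicate 2, where 9 of the 48 genes had 3 fragments or fewer. No paired analysis was possible because the labels give 1 group of 2 libraries with no contrast.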
